A study of Mus musculus with 6 samples.

Results

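The transcripts described here encode the tissue-specific and ubiquitous isoforms of cytochrome c oxidase, the terminal complex of the mitochondrial respiratory chain, in mouse hearts after MEK inhibition. The 9 genes, Cox4i1, Cox4i2, Cox6a1, Cox6a2, Cox7a1, Cox7a2, Cox7a2l, Cox8a and Cox8b, were chosen by their gene symbols among 21705 rows of a single expression table, and all 9 were present. Whole hearts came from 12 to 16 week old wild-type females of the FVB strain, which received for 14 days a daily dose of vehicle alone or of trametinib at 3 mg/kg, a drug that blocks the MEK kinases of the ERK pathway. The table heads its control columns PBS. Each arm held 3 hearts, and the series is titled for mitochondrial injury and innate immune responses under the drug.

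Cytochrome c oxidase, complex IV, passes electrons from cytochrome c to oxygen and pumps protons across the inner mitochondrial membrane. Its catalytic core is encoded by mitochondrial DNA, and the nuclear subunits around it regulate and stabilise the enzyme. Some nuclear subunits exist as isoforms from separate genes. COX6A, COX7A and COX8 have a heart and skeletal muscle form (Cox6a2, Cox7a1 and Cox8b) and a form found in most tissues (Cox6a1, Cox7a2 and Cox8a). In rodents the muscle forms replace the ubiquitous forms in striated muscle around birth. COX4 differs, since Cox4i1 is the common form also in heart, whereas Cox4i2 is best known from lung and from cells of the vessel wall. Cox7a2l encodes a relative of COX7A, also called SCAF1, that joins complex III to complex IV in supercomplexes. In humans, defects of COX6A2 cause a myopathy.

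Promoter sequences are shown for the COX7A and COX8 genes, because each of these families has both its muscle and its ubiquitous gene in the RefSeq promoter table, so that the genes compared below can be read side by side. Each line gives the 250 bases before the annotated start, 5′ to 3′, in build GRCm38.p6. Cox7a1 lies on the plus strand at chr7:30183921-30184170, Cox7a2 on the minus strand at chr9:79759854-79760103, Cox8b on the minus strand at chr7:140900447-140900696 and Cox8a on the minus strand at chr19:7217617-7217866. Capitals mark every match, on either strand, to an E-box (CANNTG), a TATA box (TATAAA), an NRF1 half-site (TGCGCA), an ETS core (CCGGAA), a GC box (GGGCGG) or a MEF2 site.
Cox7a1: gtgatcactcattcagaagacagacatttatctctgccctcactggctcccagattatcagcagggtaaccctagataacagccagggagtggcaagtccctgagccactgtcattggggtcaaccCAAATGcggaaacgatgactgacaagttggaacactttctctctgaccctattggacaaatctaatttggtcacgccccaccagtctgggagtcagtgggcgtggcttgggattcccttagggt
Cox7a2: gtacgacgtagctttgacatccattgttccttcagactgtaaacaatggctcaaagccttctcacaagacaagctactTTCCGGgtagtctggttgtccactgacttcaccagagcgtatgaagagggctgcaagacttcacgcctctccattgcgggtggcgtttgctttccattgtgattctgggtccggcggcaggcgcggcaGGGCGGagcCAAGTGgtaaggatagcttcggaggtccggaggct
Cox8b: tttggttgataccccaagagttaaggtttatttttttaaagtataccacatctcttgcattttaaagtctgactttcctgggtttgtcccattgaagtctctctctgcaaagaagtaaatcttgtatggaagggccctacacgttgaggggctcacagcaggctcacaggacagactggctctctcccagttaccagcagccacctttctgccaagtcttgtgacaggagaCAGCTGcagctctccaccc
Cox8a: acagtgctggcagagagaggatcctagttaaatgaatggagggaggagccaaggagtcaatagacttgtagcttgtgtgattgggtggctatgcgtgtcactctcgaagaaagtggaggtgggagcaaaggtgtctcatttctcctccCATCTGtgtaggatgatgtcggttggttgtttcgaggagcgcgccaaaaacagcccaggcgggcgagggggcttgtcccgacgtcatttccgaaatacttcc

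The table of promoters held 6 of the 9 genes, those named here together with Cox6a1 and Cox7a2l. In the 250 bases shown, Cox7a1, Cox8b and Cox8a each had 1 E-box and none of the other motifs. Cox7a2 had 1 E-box, 1 ETS core, the binding motif of the GABP factor, and 1 GC box. Cox6a1 had an NRF1 half-site, an ETS core and 2 GC boxes but no E-box, and Cox7a2l had 1 E-box and 1 GC box. Among all 32851 promoter windows of that length, 66.2% held an E-box, 32.7% a GC box, 12.4% a TATA box, 12.0% an ETS core, 6.43% an NRF1 half-site and 2.92% a MEF2 site. No MEF2 site or TATA box was found in the windows of the 6 genes. GC content ran from 47.2% in Cox8b to 62.8% in Cox6a1.

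The values are normalized counts per gene, which the authors had scaled to a common upper quartile, and the library totals lay between 21656431 and 22330993. From the step between low values the depth was estimated at 14304826 to 16046500 reads in vehicle and 23033856 to 24691501 in trametinib libraries, so depth differed between the arms. Hearts of the same arm correlated across genes at 0.969 to 0.988 (log2 values), and hearts of different arms at 0.927 to 0.963. All 10 cardiomyocyte markers were present, as the tissue label says, with summed levels of 2320404 to 2388934 normalized counts in vehicle and 2154178 to 2251340 in trametinib hearts. No row had a symbol starting with mt-, the only naming style of mitochondrially encoded genes that was searched. The core subunits of the enzyme were not analysed here.

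Of the 9 isoform transcripts, 9 fell with trametinib and 0 rose, at an adjusted p below 0.05 in limma with Benjamini-Hochberg adjustment over 13581 genes. The decrease in the arm means ran from 27.2% for Cox6a1 to 60.3% for Cox8b. Among all genes tested, 22.8% were called lower and 21.6% higher. The isoforms are short transcripts of 360 to 1102 nt, and 64.6% of the 1682 tested genes in that length range were called lower. The median log2 fold change in the range was -0.49. The median of the 9 isoforms was -0.88, against -0.01 over all genes. In these whole-heart libraries, fewer cells of a type and less RNA per cell cannot be told apart.

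**Figure D1:**
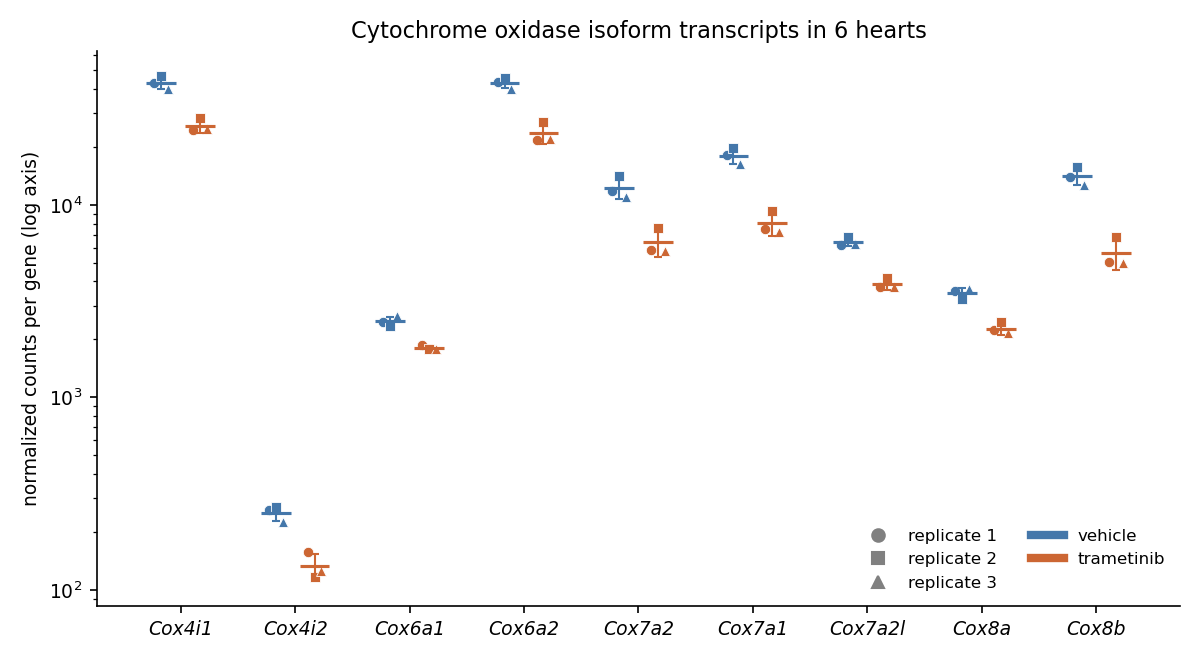
Normalized counts of the 9 transcripts (log axis) in each heart; symbols mark the replicate, horizontal lines the mean and bars the SD of 3 hearts. Every trametinib point lies below every vehicle point of its gene, and the levels span from Cox4i2, at 117 to 268, to Cox4i1 and Cox6a2, at 21757 and above.

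The muscle isoforms Cox8b and Cox7a1 had the largest log2 fold changes of the 9. Cox8b, which encodes the muscle form of the small subunit COX8, measured 13914, 15823 and 12757 normalized counts in vehicle replicates 1 to 3 and 5025, 6831 and 5018 in trametinib replicates 1 to 3. The lowest vehicle heart lay far above the highest trametinib heart. The log2 fold change of Cox8b was -1.34 ± 0.13 (SE; adjusted p = 0.000415). Cox7a1, the muscle form of a small membrane-spanning subunit, measured 18112, 19784 and 16228 in vehicle and 7501, 9283 and 7271 in trametinib hearts. Its log2 fold change was -1.17 ± 0.11 (adjusted p = 0.000353). Replicate 2 was the highest heart of its arm for both genes, and the arms did not overlap.

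Cox6a2, the muscle form of a subunit that takes part in the enzyme's regulation by adenine nucleotides, was the most abundant muscle isoform. It measured 43485, 45468 and 40050 normalized counts in vehicle hearts and 21757, 26801 and 21951 in trametinib hearts. The log2 fold change was -0.88 ± 0.09 (adjusted p = 0.000499), a decrease in the mean of 45.3%. The opposite-strand gene Itgad overlaps an exon of Cox6a2 in the annotation, and at 10.3 to 24.7 normalized counts it was far below Cox6a2 in each heart.

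The ubiquitous partners fell as well, but 2 of these 3 genes had the smallest changes of the 9. Cox6a1 measured 2460, 2354 and 2632 in vehicle hearts and 1865, 1778 and 1779 in trametinib hearts (log2 fold change -0.46 ± 0.06; adjusted p = 0.00108). Cox8a measured 3573, 3260 and 3658 against 2226, 2458 and 2150 (-0.62 ± 0.07; adjusted p = 0.000673). In both genes vehicle replicate 2 was the lowest vehicle heart, whereas it was the highest for each of the 3 muscle isoforms. Cox7a2 behaved more like the muscle genes, with 11735, 14076 and 11037 in vehicle and 5838, 7599 and 5741 in trametinib hearts. Its log2 fold change was -0.95 ± 0.13 (adjusted p = 0.00118), and replicate 2 was again the highest heart in each arm.

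In the COX4 family the common form Cox4i1, which encodes the subunit most often used as a marker of mitochondria, measured 42934, 46716 and 39963 in vehicle and 24344, 28128 and 24751 in trametinib hearts. The arms were apart and the log2 fold change was -0.75 ± 0.08 (adjusted p = 0.000543). Emc8, listed under an older name as Cox4nb, overlaps Cox4i1 on the opposite strand and lay between 465 and 532 normalized counts in all 6 hearts.

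Cox4i2 was the scarcest of the 9, with 261, 268 and 225 normalized counts in vehicle and 157, 117 and 126 in trametinib hearts. Its log2 fold change was -0.92 ± 0.15 (adjusted p = 0.00211), with the largest standard error of the 9. Because Cox4i2 is a transcript of mural cells in several mouse tissues, the 8 pericyte markers are given beside it. Of these, 3 rose and 2 fell with a median log2 fold change of 0.03, and their summed level was 17646 to 19347 in vehicle and 21959 to 23837 in trametinib hearts. Most of this sum was 1 gene, Abcc9, with means of 11421 ± 246 in vehicle and 14258 ± 1030 in trametinib hearts (SD, n = 3). It was named after its values were seen, and the sum does not stand for the 8 markers alike. None of the 8 was at 0, and after the length and GC correction described below 1 rose and 3 fell. Among all tested genes 21.6% were called higher and 22.8% lower, and 17.7% and 15.6% after that correction. The regulator of G-protein signalling Rgs5 rose (0.68 ± 0.06) and the potassium channel subunit Kcnj8 fell (-0.57 ± 0.17); both were named after their values were seen. The part of such cells in the Cox4i2 result was not tested.

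Cox7a2l, the supercomplex factor, measured 6225, 6790 and 6278 in vehicle and 3744, 4184 and 3738 in trametinib hearts. The log2 fold change was -0.73 ± 0.07 (adjusted p = 0.000315), and the lowest vehicle heart was well above the highest trametinib heart. Laboratory mice carry different Cox7a2l alleles, and the allele of these FVB animals was not examined. Of the 75-base stretches of its transcripts, 13.4% also occur in the annotated gene Gm6969, and 6.44% of those of Cox6a1 in AC148174.2, so reads of these genes could be shared. For the other 7 genes the share was 0%.

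Every trametinib heart was below every vehicle heart for 9 of 9 isoforms, a pattern that 29.5% of all tested genes showed. Trametinib replicate 2 had the highest value of its arm for 7 of the 9, the exceptions being Cox6a1 and Cox4i2, which were highest in trametinib replicate 1. Vehicle replicate 2 likewise held the highest vehicle value for 7 of the 9, the exceptions being Cox6a1 and Cox8a, which were highest in vehicle replicate 3. Leaving out each heart in turn kept all 9 calls, with Cox8b between -1.49 and -1.26 and Cox6a1 between -0.49 and -0.41.

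Levels of different genes can be compared only per length. Dividing by the mean length of the protein-coding transcripts gave, in vehicle hearts, 65300 ± 5110 normalized counts per kb for Cox4i1 and 63200 ± 4030 for Cox6a2 (SD, n = 3), whose ranges overlapped. Next came Cox7a1 at 41100 ± 4050 and Cox8b at 39300 ± 4300 per kb, again with overlapping ranges. Cox7a2 followed at 18600 ± 2420 per kb, and after it Cox8a at 6360 ± 381 and Cox7a2l at 5830 ± 283, which overlapped with each other. Cox6a1 at 4350 ± 246 and Cox4i2 at 345 ± 31.6 per kb closed the order.

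The order per kb was the same in the trametinib hearts. Cox4i1 stood at 38900 ± 3140 and Cox6a2 at 34600 ± 4200 normalized counts per kb, with overlapping ranges. Cox7a1 at 18300 ± 2510 and Cox8b at 15600 ± 2900 also overlapped, and Cox7a2 followed at 9700 ± 1590. Cox8a at 4140 ± 292, Cox7a2l at 3530 ± 232 and Cox6a1 at 3170 ± 88 did not overlap with each other, and Cox4i2 was again last at 182 ± 28.9 per kb.

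The isoform comparison asks whether the muscle and ubiquitous forms of a subunit moved by the same amount, using the log2 ratio of the values of both genes within each heart, which does not depend on how the library was scaled. For COX8 the ratio of Cox8b to Cox8a was 1.96, 2.28 and 1.80 in vehicle and 1.17, 1.47 and 1.22 in trametinib hearts, on the log2 scale. It was lower in every trametinib heart than in every vehicle heart, by a mean of -0.72, so that the ratio stood at 0.606 of its vehicle level. The muscle form held 86.0% ± 1.98 of the COX8 transcripts per length in vehicle hearts and 78.9% ± 1.83 in trametinib hearts (SD, n = 3).

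For COX6A the log2 ratio of Cox6a2 to Cox6a1 was 4.14, 4.27 and 3.93 in vehicle and 3.54, 3.91 and 3.62 in trametinib hearts. The arms were narrowly apart, at 3.93 in vehicle replicate 3 and 3.91 in trametinib replicate 2, and the difference in means was -0.42. The muscle form remained the dominant COX6A transcript, with 93.5% ± 0.736 per length in vehicle and 91.5% ± 1.01 in trametinib hearts.

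For COX7A the log2 ratio of Cox7a1 to Cox7a2 was 0.63, 0.49 and 0.56 in vehicle and 0.36, 0.29 and 0.34 in trametinib hearts. The arms did not overlap and the difference of -0.23 was the smallest of the 3 muscle pairs. Cox7a1 held 68.8% ± 1.00 of the pair's transcripts per length in vehicle and 65.4% ± 0.590 in trametinib hearts. The ubiquitous form is thus a larger part of this pair than of the COX6A and COX8 pairs.

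For COX4 the log2 ratio of Cox4i2 to Cox4i1 was -7.35, -7.44 and -7.46 in vehicle and -7.27, -7.90 and -7.61 in trametinib hearts. These arms overlapped, and Cox4i2 made up 0.525% ± 0.0214 of the pair per length in vehicle and 0.472% ± 0.104 in trametinib hearts. The ratio of Cox7a2l to Cox7a1 was higher with trametinib, at -1.54, -1.54 and -1.37 in vehicle and -1.0, -1.15 and -0.96 in trametinib hearts, a difference of 0.45 without overlap. After correction for length and GC content its direction turned, to -0.17, again without overlap, with -1.28 to -1.12 in vehicle and -1.36 to -1.34 in trametinib hearts. The ratio of Cox7a2l to Cox7a2 differed by 0.22 with overlapping arms.

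An exact two-sided permutation test over the 6 hearts gave p = 0.1 for Cox8b/Cox8a, Cox6a2/Cox6a1, Cox7a1/Cox7a2 and Cox7a2l/Cox7a1, which is the smallest p that 3 hearts against 3 allow (0.15 adjusted over the 6 ratios). The exact test gave p = 0.5 for Cox4i2/Cox4i1 and 0.2 for Cox7a2l/Cox7a2 (adjusted 0.5 and 0.24). With this test no ratio of 3 hearts against 3 could pass a threshold of 0.05, and no model-based test of the ratios was run.

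**Figure D2:**
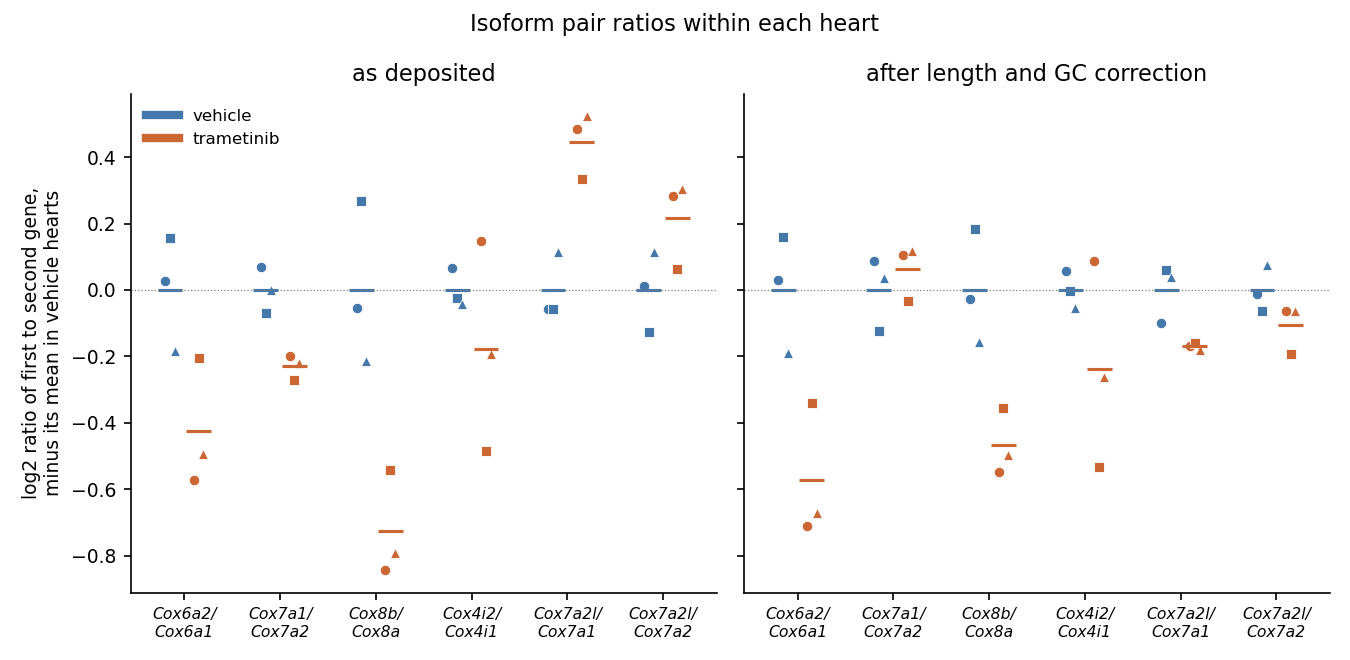
Log2 ratio of the first to the second gene of each pair in every heart, minus the mean of the vehicle hearts, as deposited (left) and after correction for transcript length and GC content (right); symbols mark the replicates and lines the means. The Cox6a2/Cox6a1 and Cox8b/Cox8a ratios are lower in all trametinib hearts in both panels, by -0.42 and -0.72 on the left and -0.58 and -0.47 on the right, while the Cox7a1/Cox7a2 ratio goes from -0.23 to 0.07.

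Transcript length moved with these results. Over all tested genes the log2 fold change followed mean transcript length with a Spearman rho of 0.47, given as a description since genes share libraries. Among the 34 tested genes within 25% of the length of Cox8b, the median log2 fold change was -0.96, and 17.6% of them had a lower value than Cox8b. For Cox7a1 the median of 114 genes of similar length was -0.85, with 20.2% lower than Cox7a1, and for Cox6a2 the median of 683 was -0.60, with 21.4% lower. Cox6a1 and Cox8a lay on the other side: 71.6% of 349 genes and 62.8% of 301 genes of their lengths had lower values. Cox7a2l, the longest of the 9 at 1102 nt, was at -0.73 where the median of 2181 genes of its length was -0.34.

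**Figure D3:**
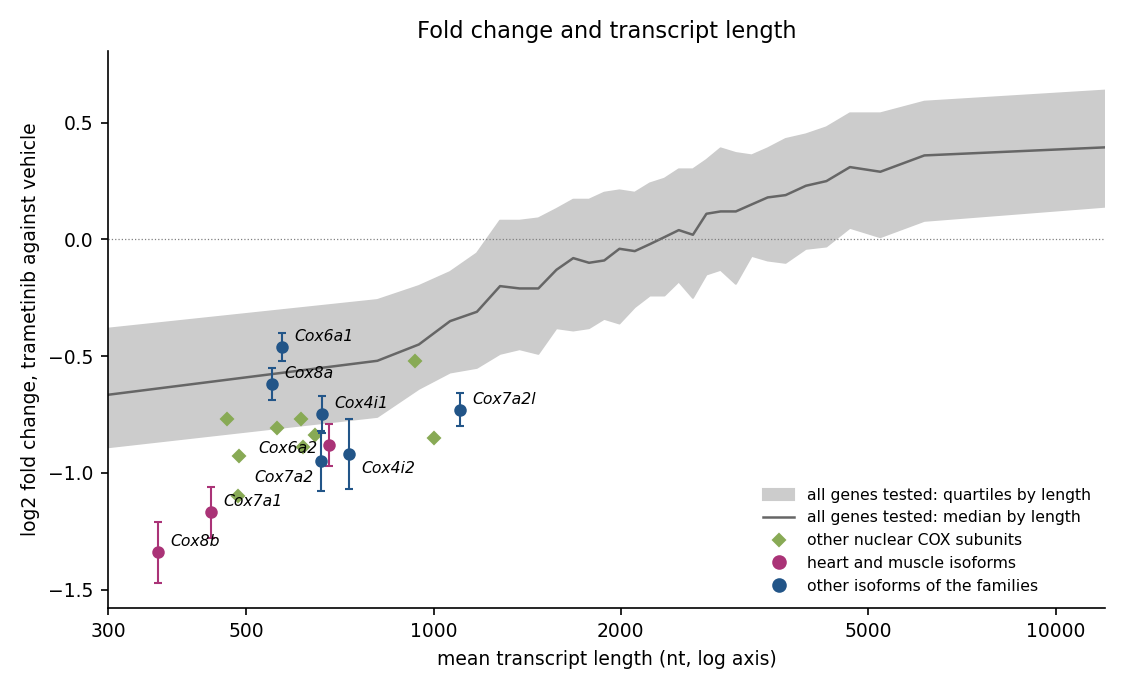
Log2 fold change against mean transcript length (log axis); the grey band and line show the quartiles and median of all tested genes in bins of length, circles the 9 isoforms with SE bars, diamonds the other nuclear subunits. The muscle isoforms Cox8b and Cox7a1 are the shortest transcripts and lie lowest, at -1.34 and -1.17, while Cox6a1 at -0.46 lies above the median line.

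After subtraction of the trends with length and GC content in each heart, 4 of the 9 isoforms were still called lower and 1 higher, where 15.6% and 17.7% of all genes were. The muscle forms Cox8b (-0.26, adjusted p = 0.0259), Cox7a1 (-0.22, adjusted p = 0.0289) and Cox6a2 (-0.23, adjusted p = 0.0466) and the supercomplex factor Cox7a2l (-0.39, adjusted p = 0.00408) were the 4 lower genes in limma. Cox6a1 turned from lower to higher (0.35, adjusted p = 0.0143) and Cox8a changed sign to 0.21 (adjusted p = 0.0629). Cox4i1 was at -0.05 (adjusted p = 0.625), Cox4i2 at -0.28 (adjusted p = 0.175) and Cox7a2 at -0.29 (adjusted p = 0.0586). The origin of the trend with length was not tested, and a correction of this kind also removes any change in the cells that follows length. The correction used mean annotated lengths. Whether these are the lengths of the isoform transcripts expressed in heart was not tested, so the corrected values and ratios may rest on them.

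Once corrected, Cox6a2/Cox6a1 differed by -0.58 and Cox8b/Cox8a by -0.47 on the log2 scale, without overlap of the arms. The exact permutation test gave p = 0.1 for each (0.2 adjusted over the 6 ratios). The families were not tested against each other. In the COX6A pair the muscle transcript is the longer of the pair, at 680 against 571 nt, and in the COX8 pair it is the shorter, at 360 against 550 nt. The Cox7a1/Cox7a2 ratio changed sign to 0.07 with overlapping arms (exact p = 0.5), and the ratio of Cox7a2l to Cox7a2 changed sign to -0.11, as that of Cox7a2l to Cox7a1 did.

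The other nuclear subunits of the enzyme moved with the isoforms. Of 11 listed, 9 had a mean of at least 10 and were tested; 8 fell and 0 rose, while Cox6b2 missed the threshold (-0.77 ± 0.33, adjusted p = 0.0964). Their median was -0.84 on the log2 scale and -0.08 after the length and GC correction. In the length range of the isoforms, where these subunits lie, 64.6% of tested genes were called lower. Cox8c, a testis form of COX8, was listed at 0 in all hearts, and Cox7b2 was below the filter. Ndufa4, a subunit of complex IV once assigned to complex I, fell from 26177 ± 3310 to 12243 ± 1880 normalized counts (SD, n = 3; -1.10 ± 0.13, adjusted p = 0.000631). Cox6b1, on the side of the intermembrane space, fell from 22167 ± 1470 to 11634 ± 1040 (-0.93 ± 0.08, adjusted p = 0.000295). Cox5a, Cox5b and Cox6c, which have no muscle isoform in mouse, were lower by log2 fold changes of -0.84, -0.77 and -0.89. These 5 subunits had decreases between those of Cox8a and Cox7a1. After the length and GC correction 3 of the 9 were lower and 0 higher, where 15.6% and 17.7% of all genes were. The lower genes were Cox5a (-0.18), Cox7b (-0.48) and Ndufa4 (-0.29). Cox7b was named after its values were seen.

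Factors that assemble the enzyme or express its mitochondrial subunits were lower in most cases. Of 29 listed, 26 were tested, 19 fell, 2 rose and 5 did not pass, with a median of -0.52. Over all genes tested, 22.8% were called lower and 21.6% higher. Many of the 26 lie in the length range of the isoforms, where 64.6% of tested genes were called lower. Higd1a, a hypoxia-induced protein that binds the enzyme, fell from 3440 ± 88.9 in vehicle to 1838 ± 87.3 in trametinib hearts (-0.91 ± 0.06, adjusted p = 0.000183). The related Higd2a had a log2 fold change of -0.96 ± 0.08. Cox14 (-0.98 ± 0.07) and Coa3 (-0.66 ± 0.07), which act on newly made COX1, and the twin-cysteine protein gene Chchd7 (-0.74 ± 0.08) fell as well. The genes that rose, named after their values were seen, were Cox10, the enzyme that makes the haem A precursor (1711 ± 33.6 and 2086 ± 105; 0.28 ± 0.06, adjusted p = 0.00658), and Lrpprc, which stabilises mitochondrial messenger RNA (4115 ± 75.5 and 4632 ± 115; 0.17 ± 0.05, adjusted p = 0.0245). Leaving out vehicle replicate 1 or 2 or trametinib replicate 1 or 3 ended the Lrpprc call (limma adjusted p from 0.053 to 0.0905), and its sign turned after the length and GC correction. After that correction 9 of the 26 were lower and 2 higher, where 15.6% and 17.7% of all genes were, and the median was -0.14. Higd1a was then at -0.55, Cox14 at -0.35, Higd2a at -0.27, Chchd7 at -0.03 and Coa3 at 0.11.

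**Figure D4:**
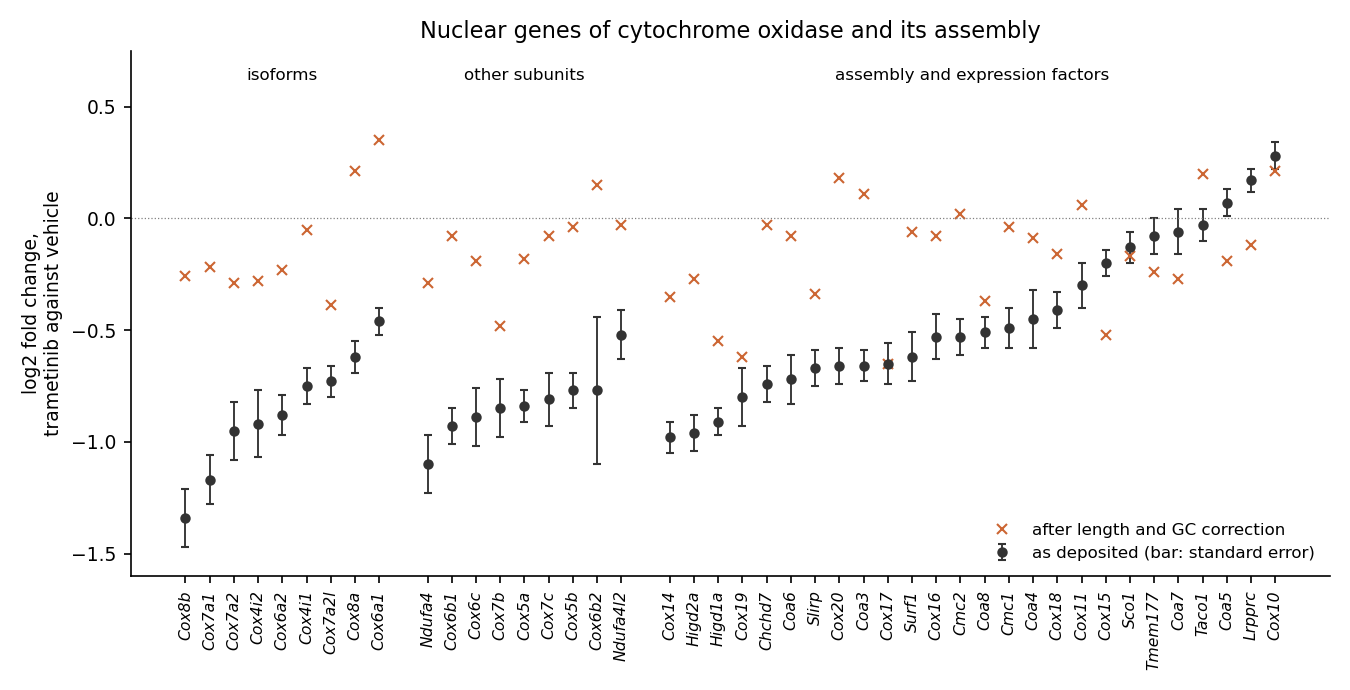
Log2 fold change of the isoforms, the other nuclear subunits and the assembly and expression factors that were tested; dots with SE bars are the values as deposited, crosses the values after correction for length and GC content. Dots of the isoforms lie between -1.34 and -0.46, and their crosses between -0.39 and 0.35.

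Genes known to control transcription of the subunits did not share this direction. Of 19 regulators, 10 rose, 2 fell and 7 did not pass, with a median of 0.27. Over all genes tested, 21.6% were called higher and 22.8% lower. Several regulators are long transcripts, such as Epas1 at 5516 nt and Yy1 at 6178 nt. Fold changes over all genes rose with length. After the length and GC correction 8 of the 19 were higher and 2 lower, where 17.7% and 15.6% of all genes were. The median was then 0.13. Epas1, the hypoxia-inducible factor HIF-2 alpha, rose from 6157 ± 52.1 to 10538 ± 304 normalized counts (0.77 ± 0.05, adjusted p = 0.000183), and was at 0.45 after the length and GC correction. Mef2a, a muscle transcription factor, rose from 2331 ± 254 to 3615 ± 289 (0.64 ± 0.10, adjusted p = 0.00166). Esrrg, a nuclear receptor of oxidative genes, had a log2 fold change of 0.50 ± 0.07, which went to 0.23 after the correction. Yy1, a zinc-finger factor with binding sites in COX promoters, had 0.38 ± 0.06, which went to 0.00 after the correction. Chchd2, a protein that in human cells activates COX4I2 from the nucleus and also binds the enzyme, fell from 11340 ± 925 to 5981 ± 619 (-0.92 ± 0.09, adjusted p = 0.000399), and to -0.45 after the correction. Without trametinib replicate 3, 6 of these genes rose in place of 10.

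Mitochondrial genes with isoforms outside complex IV fell too. Of 7 listed, 6 were tested and 6 fell, with a median of -0.64, and Ckmt1 was below the filter. Over all genes tested, 22.8% were called lower. The ATP synthase subunit c genes Atp5g3 (-1.11 ± 0.07), Atp5g1 (-0.96 ± 0.06) and Atp5g2 (-0.77 ± 0.07) encode the same mature protein, and differences between their changes were not tested. Slc25a4, the heart and muscle form of the ADP/ATP carrier, went from 136871 ± 6240 to 95407 ± 2970 normalized counts (-0.52 ± 0.07), and the muscle creatine kinase Ckmt2 from 67736 ± 1240 to 50463 ± 1040 (-0.42 ± 0.05). After the correction 4 of the 6 were lower, where 15.6% of all genes were. The order of the subunit c genes turned, with Atp5g1 at -1.04, Atp5g3 at -0.51 and Atp5g2 at -0.05. Ckmt2 was then at -0.25. The correction used mean annotated lengths, 2666 nt for Atp5g1, 718 nt for Atp5g3 and 640 nt for Atp5g2. Whether these are the lengths of the transcripts expressed in heart was not tested, so the turned order may rest on them.

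Markers of cardiomyocytes, the cells in which the muscle isoforms are known to act, moved in both directions. Among all tested genes 22.8% were called lower and 21.6% higher, and 15.6% and 17.7% after the length and GC correction. Of the 10 markers 7 fell and 3 rose, and their median of -0.42 went to 0.01 after the correction. Of these, named after their values were seen, the short transcripts Myl3, a myosin light chain, and Mb, myoglobin, had log2 fold changes of -1.02 ± 0.09 and -0.96 ± 0.09. The long transcripts Ryr2, the calcium release channel, and Ttn, titin, had 1.00 ± 0.10 and 0.82 ± 0.08. After the correction 2 of the 10 were lower, Myl3 (-0.38) and Mb (-0.36), and 3 higher, Ryr2 (0.51), Myh6 (0.43) and Tnni3 (0.24). Ttn was then at 0.06. Tnni3, also short at 658 nt, had a log2 fold change of -0.45 ± 0.09 as deposited. Myh6 and Tnni3 were likewise named after their values were seen. The 9 isoforms summed to 132829 to 154541 normalized counts in vehicle and 72458 to 87178 in trametinib hearts.

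Cells of other kinds were represented as follows, with sums over all markers of each kind that were present. The shares called among all tested genes were 22.8% lower and 21.6% higher. Of 10 skeletal muscle markers 3 were tested, with 1 higher and none lower. The summed level of all 10 was 940 to 1049 in vehicle and 1004 to 1466 in trametinib hearts. Most of this sum was 1 gene, Mybpc2, with means of 968 ± 61.6 and 1164 ± 236 (SD, n = 3), which was not called (limma adjusted p = 0.189). The marker that rose, Myh4, was scarce, with means of 7.21 in vehicle and 27.0 in trametinib hearts. Both were named after their values were seen. Of 8 adipocyte markers 6 were tested and 1 fell, with sums of 829 to 1072 and 563 to 937. Of 5 smooth muscle markers 1 rose and 1 fell, with sums of 6827 to 12543 and 5295 to 9529. Blood-borne signals were higher with the drug, the erythroid markers at 19814 to 27340 and 54923 to 194059 (3 of 4 tested rose). The neutrophil markers were at 98 to 470 and 1465 to 3114 (5 of 5 rose). Most of the erythroid sum was Hba-a2, at 143431 in trametinib replicate 1 against 61193 and 49101 in replicates 2 and 3. Hbb-b1, at 45323 against 3633 and 3787 in the same hearts, was not called (limma adjusted p = 0.0978). Both genes were named after their values were seen. None of the markers found in the table was at 0 in all hearts, and the part of these cells in the results was not tested.

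The genes whose values over the 6 hearts were most like each muscle isoform were named by the root mean square distance of mean-centred log2 values. For Cox8b the nearest were Ndufb2, a complex I subunit (distance 0.0242), Myeov2 (0.0359) and Tmem205 (0.052). For Cox7a1 they were Ndufa2, another complex I subunit (0.0298), Trappc2l (0.033) and the cardiac homeodomain gene Hopx (0.0335). For Cox6a2 they were Uqcrq, a complex III subunit (0.0241), Hint2 (0.0299) and the complex I subunit Ndufa1 (0.0313). The nearest genes to Cox4i2 were more distant, Lrp11 at 0.0877, Dnd1 at 0.0997 and Mri1 at 0.103.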

How the data were processed

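Messenger RNA of 6 whole hearts was sequenced from a stranded kit in a single-end run of 75 cycles, per the labels' protocols; the label text names 2 RNA isolation kits without saying which heart had which. The submitters' processing notes list Picard 1.64, SAMtools, RSEM, DESeq2 and mm9, with no role or order. No source used here gives the aligner, the annotation or the strand used in counting. As deposited, each value is a signal, a normalized count scaled by the authors with a single factor for each heart, judged from the steps between low values. Between 87.49% and 89.39% of values below 50 steps of the smallest unit lay within 0.05 of a whole multiple, too few to use a count model. The table has 1 more control column, which fits none of the sample labels and was left out.

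The main test was limma 3.58.1 in R 4.3.3, run for the 13581 genes with a mean value of 10 or more on log2(value + 1) with a mean-variance trend, over all 6 hearts, so fold changes are on that scale. Isoform ratios were tested by exact permutation. Transcript length and GC content came from GENCODE M21 (GRCm38), as means over protein-coding transcripts, and covered 97.5% of tested genes; the correction subtracted a lowess curve (span 0.3) on each. Motifs were searched in RefSeq promoters. Some listed genes carry older symbols in the table and were matched by older name or Entrez identifier (Cox14 as 2310016M24Rik, Coa3 as Ccdc56). The code was tested on simulated libraries. The 9 genes, the lists and the tests were chosen with earlier results of these data known. At most 5 genes per list, by smallest p, were named unless stated otherwise. Hearts are separate animals, each with its own library, so the spread within an arm holds differences between animals and between libraries. In limma this spread is also moderated by the trend over all genes.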

Additional observations from a re-analysis of the deposited data

How the results depend on the processing

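All 9 isoform calls kept direction and threshold under pseudocounts of 0.1 and 10, without a filter, with quantile normalization, with median-of-ratios scaling, with the replicate number as a block and without each heart in turn. The length and GC correction was the exception, with 4 lower and 1 higher (5 and 1 in the replicate block with the correction). There Cox6a1 was 0.35, Cox8a 0.21, Coa3 0.11 and Lrpprc -0.12, and the ratios were 0.07 (Cox7a1/Cox7a2), -0.17 (Cox7a2l/Cox7a1) and -0.11 (Cox7a2l/Cox7a2), in the fit with the block too. Length correction alone, chosen after seeing the data, gave 4 lower and 1 higher, Cox6a1 0.3, Cox8a 0.16, and ratios of 0.03, -0.13 and -0.1. Other subunits lower went from 8 to 3 (4 with the block) and assembly factors lower from 19 to 9 (9 with the block). Assembly factors higher went from 2 to 1 with quantile normalization and to 0 in the replicate block with the correction, where 1825 of all genes were lower in place of 3098 and Esrrg lost its call (limma adjusted p = 0.0524).

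Without each heart in turn, assembly factors higher ran from 1 to 2, regulators higher from 6 (without trametinib replicate 3) to 10, the Cox8b/Cox8a ratio from -0.83 to -0.59, Cox6a2/Cox6a1 from -0.53 to -0.34 and Cox4i2/Cox4i1 from -0.34 to -0.02. The hearts share only a replicate number: correlations of same-numbered deviations were 0.238, 0.0191 and 0.5, and the replicate block left 2877 genes lower and 2885 higher, against 3098 and 2939. The cause of the length trend was not tested. How depth limits each gene was not tested.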
